A study of Sus scrofa with 11 samples.

Results

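The comparison described here sets pig hearts that had both a high fat diet and an injection of extracellular vesicles against hearts that had neither. Arrays titled HFD+EV (3) were compared with arrays titled ND (3), 6 of the 11 arrays of the series, and differences were examined across the 20668 of 27558 probe sets that passed a filter on low signal. The animals were intact male Yorkshire swine that ate normal chow (ND) or high fat chow (HFD) for 12 weeks. Every heart carried an ameroid constrictor, an implant that narrows an artery over time, on the left circumflex coronary artery, so the ND hearts were ischemic too and were not healthy hearts. ND hearts received vehicle into the ischemic muscle and HFD+EV hearts received extracellular vesicles (EV), and tissue of the ischemic zone of the left ventricle was taken 5 weeks later. The remaining arrays, HFD with vehicle (2) and ND+EV (3), entered the same model and are given beside the comparison. HFD+EV and ND differ in both diet and injection, so this comparison alone cannot tell apart what belongs to either. The labels do not give the cells that the vesicles came from, and they call the arrays of a group biological replicates without tying any array to a named animal, so p-values measure the spread between these samples.

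Extracellular vesicles are membrane particles that cells release and that carry protein, lipid and RNA to other cells. In ischemic heart muscle they are studied for their effect on the growth of small vessels, which vascular endothelial growth factors and their receptors, angiopoietins and endothelial nitric oxide help to control. Heart muscle draws most of its ATP from mitochondrial oxidation of fatty acids, and sensors of foreign or misplaced nucleic acid in many cell types can switch on interferon, which raises a broad set of antiviral genes.

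All values are the authors' normalized log2 signals, so a difference of 1 is a 2-fold change, and each gene is represented by its probe set with the highest mean. Array medians lay between 4.36 and 4.48. Correlation with the remaining arrays averaged 0.925 for ND replicate 1 and 0.937 for ND replicate 3, and 0.951 to 0.962 for each of the other arrays, so results are also given below without these 2 ND arrays. The spread of signal within an array was 1.45 to 1.51 (SD over probe sets) in ND and 1.51 to 1.60 in HFD+EV. Cardiomyocyte markers were present in all 6 hearts: the slow myosin heavy chain MYH7 read 12.07 to 12.69, the ventricular light chain MYL3 11.58 to 12.15 and cardiac actin ACTC1 13.12 to 13.64. The tissue label was not contradicted by these genes. In bulk tissue, fewer cells of a type and less RNA per cell cannot be told apart.

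HFD+EV hearts lay on average about as far from ND hearts as ND hearts lay from one another. The distance between 2 arrays was taken as the median absolute log2 difference over the 20668 probe sets tested. It averaged 0.251 over the 9 pairs of an HFD+EV and an ND array (range 0.183 to 0.307), 0.251 over the 3 pairs of ND arrays and 0.191 over the 3 pairs of HFD+EV arrays. Each of the 3 ND pairs (0.227, 0.244 and 0.2815) held ND replicate 1 or 3, the arrays with the lowest correlations. Without both of them no ND pair remains, so the likeness cannot be examined without them. ND replicate 2 lay 0.183, 0.192 and 0.205 from the HFD+EV arrays, which lay 0.147 to 0.217 from one another. The mean between the groups exceeded the mean within them by 0.0305 (exact permutation test over 20 assignments, two-sided p = 0.2, where 0.1 is the smallest p that 3 against 3 arrays allow). Without HFD+EV replicate 3 that excess was 2e-04, without HFD+EV replicate 2 it was 0.0057, and without ND replicate 2 it was 0.0668. For orientation, HFD hearts averaged 0.285 from ND over 6 pairs, ND+EV hearts 0.220 from ND over 9, HFD+EV hearts 0.190 from HFD over 6 and 0.200 from ND+EV over 9. These group means share arrays and were not tested against each other.

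Gene by gene, few differences passed. Of 20668 probe sets, 5 passed an adjusted p of 0.05 by limma with Benjamini-Hochberg adjustment (0.0242%), all of them higher in HFD+EV, and none was lower. At an unadjusted p under 0.05 there were 3487 (16.9%). At an adjusted p under 0.10 there were 140 (0.677%), of which 120 were higher (0.581%) and 20 lower (0.0968%). In the same model 152 probe sets passed for HFD against ND (0.735%), and 0 passed for ND+EV against ND, HFD+EV against HFD and HFD+EV against ND+EV, with 1758, 1146 and 1522 at an unadjusted p under 0.05. The median size of a log2 difference from ND was 0.19 in HFD+EV, 0.24 in HFD and 0.14 in ND+EV. These comparisons share their ND or HFD+EV arrays. The count of 5 was 0 without HFD+EV replicate 2 or 3, ND replicate 3, either HFD array or ND+EV replicate 1 or 3, and it was 403 without ND replicate 2, 270 without HFD+EV replicate 1 and 10 without ND+EV replicate 2.

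Differences went with signal. Over the probe sets the log2 fold change and the mean signal had a correlation of 0.31, across probe sets that share the same arrays and are not independent. Among the 5167 probe sets with the lowest signal 30.4% were higher in HFD+EV, with a median of -0.09. Among the 5167 with the highest signal 69.5% were higher, with a median of 0.20. Cyclic loess normalization left a correlation of -0.02, and the larger gene lists are given with their median after it. The part of signal in each gene's difference was not tested. Among the 9738 genes with a symbol, 52.6% were higher and the median was 0.02, also after quantile or cyclic loess normalization (0.02 each). With each array centred on its own median the gene median was 0.07 and 61.3% were higher.

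**Figure D1:**
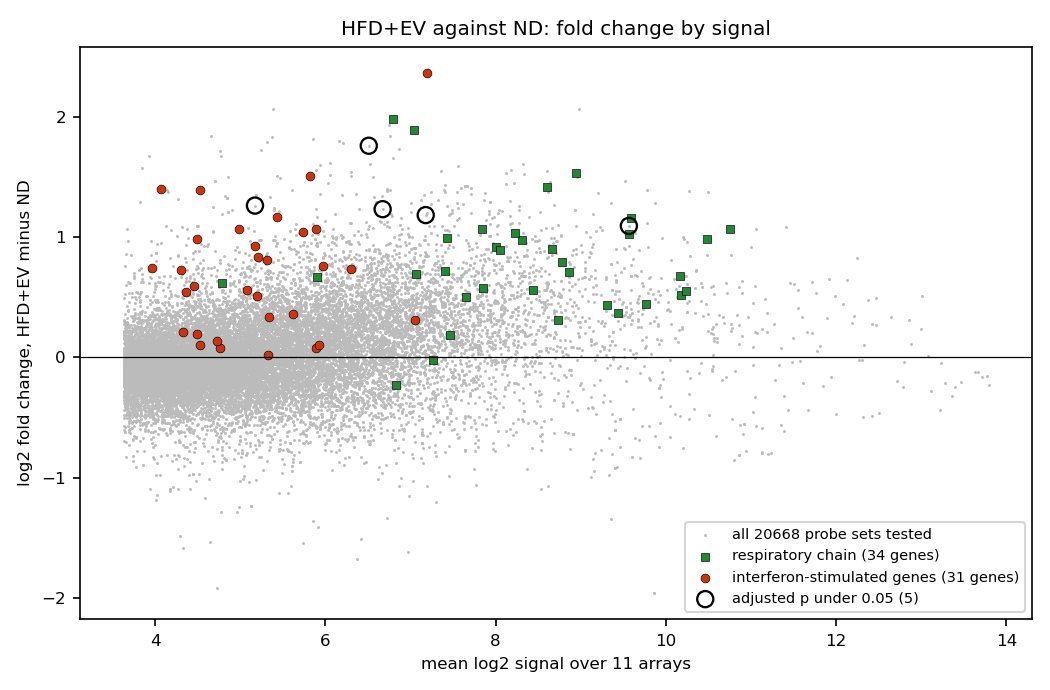
Log2 fold change of HFD+EV over ND (vertical axis) against mean log2 signal over 11 arrays (horizontal axis) for the 20668 probe sets tested (grey), with 31 interferon-stimulated genes (red circles), 34 respiratory chain genes (green squares) and the 5 probe sets past the threshold (open rings). The cloud tilts upward with signal, the interferon-stimulated genes lie above 0 at low and middle signal, and the respiratory chain genes lie mostly above 0 at high signal.

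PHF11, which encodes a protein with a plant homeodomain finger, was the 1 gene of 9738 with a symbol that passed (0.0103%). It read 6.73, 6.7996 and 6.38 on the ND arrays and 7.90, 7.83 and 7.73 on the HFD+EV arrays. Every HFD+EV heart was above every ND heart. PHF11 rose by 1.18 ± 0.14 (SE; 95% interval 0.87 to 1.49), a fold of 2.27 (limma adjusted p = 0.0403). Its means were 7.16 in HFD and 7.09 in ND+EV, both between the ND and the HFD+EV means. The difference was 0.97 to 1.26 over 25 alternatives, but the call was lost in 15 of them, with limma adjusted p from 0.0224 to 0.312. Filters, the threshold, the variance prior, the replicate block and left-out HFD or ND+EV arrays cannot change the difference itself (1.18). The kept direction therefore says something only where normalization, array weights or the HFD+EV and ND arrays used were changed.

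The other 4 probe sets that passed have no symbol in the annotation used here. They were higher by 1.09 to 1.76 on the log2 scale, with adjusted p of 0.0403 to 0.0497 (limma). The largest of these differences read 5.79, 6.07 and 5.64 in ND against 7.45, 7.86 and 7.47 in HFD+EV, and 6.35 and 6.40 in HFD. On all 4, the arrays of the groups did not overlap.

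The genes next in order did not pass and were picked only among genes without overlap between the groups, so their lack of overlap is no result. Several of them belong to immune defence. GVIN1, a large GTPase named for its induction by interferon, read 4.87, 5.28 and 4.80 in ND and 6.05, 6.21 and 6.37 in HFD+EV (difference 1.23 ± 0.19 SE, limma adjusted p = 0.0705). LGALS9, which encodes the sugar-binding protein galectin 9, read 5.88, 6.39 and 5.76 in ND and 6.97, 7.74 and 7.81 in HFD+EV (1.498 ± 0.24, adjusted p = 0.0713). ERAP2, a peptidase that trims peptides for presentation on class I molecules, read 5.24, 5.78 and 5.34 in ND and 6.32, 6.52 and 6.67 in HFD+EV (1.05 ± 0.17, adjusted p = 0.0713). For each of the 3 the lowest HFD+EV heart was above the highest ND heart. The HFD hearts were nearer to ND for LGALS9 (6.31 and 6.04) and nearer to HFD+EV for ERAP2 (6.20 and 5.998).

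Others in that order serve cell division, transport and RNA processing. SKA2, a part of the complex that ties chromosomes to the spindle, read 4.84, 5.37 and 4.38 in ND and 6.21, 6.66 and 6.40 in HFD+EV (1.56 ± 0.22, limma adjusted p = 0.0637). ERGIC2, a protein of transport between the endoplasmic reticulum and the Golgi, read 6.05, 6.04 and 6.03 in ND and 6.73, 7.03 and 7.04 in HFD+EV (0.89 ± 0.13, adjusted p = 0.0637). RAB14, a small GTPase of endosome traffic, read 6.93, 7.76 and 7.05 in ND and 8.36, 8.42 and 8.46 in HFD+EV (1.17 ± 0.19, adjusted p = 0.0713). None of these overlapped between the groups, as the rule for naming them required. In each of these genes the HFD hearts lay beside the HFD+EV hearts: HFD means differed from ND by 1.59 for SKA2, 1.01 for ERGIC2 and 1.19 for RAB14. RNGTT, the enzyme that caps messenger RNA, was higher by 0.92 ± 0.15 (adjusted p = 0.0713), and ND+EV differed from ND by as much (0.94). A second RNGTT probe set gave 0.42. STC1, a secreted glycoprotein on the hypoxia list, read 6.74, 6.95 and 7.12 in ND and 8.15, 8.53 and 7.67 in HFD+EV (1.18 ± 0.19, adjusted p = 0.0713). HFD was above ND by 0.31 and ND+EV by 0.49 for STC1, so HFD+EV held the highest of the 4 means.

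No gene was lower past the threshold, and 4 were lower at an adjusted p under 0.10 (0.0411%). MIR885, the gene of a microRNA, read 4.49, 4.49 and 4.82 in ND and 3.19, 3.41 and 3.64 in HFD+EV (-1.18 ± 0.19, limma adjusted p = 0.0713). HOOK2, which links cargo to microtubules, read 5.71, 6.19 and 5.78 in ND and 5.13, 4.66 and 5.09 in HFD+EV (-0.93 ± 0.17, adjusted p = 0.0779). The groups did not overlap for either gene, as the rule for naming them required. HFD hearts were as low as HFD+EV hearts in MIR885 (3.53 and 3.57). These MIR885 values lie about the low-signal limit of 3.63, and no detection call was used, so the size of its difference is uncertain. All 3 other groups were lower than ND in HOOK2, with ND+EV at -0.79 from ND. RN5-8S, the 5.8S ribosomal RNA, whose many near-identical copies make its value uncertain, read 12.67, 12.09 and 11.84 in ND and 11.43, 9.60 and 10.18 in HFD+EV (-1.80 ± 0.40, adjusted p = 0.112). The remaining genes of this order were GFOD1, TCF23, ATL1, STAC2, ZBED3, GRIN2D and PRR12, at -0.84 to -0.59, with adjusted p of 0.109 to 0.144. GRIN2D averaged 3.51 in HFD+EV, below the same limit. ATL1 is a GTPase that shapes the endoplasmic reticulum and GRIN2D is a glutamate receptor subunit. A second probe set of PRR12 gave 0.04.

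**Figure D2:**
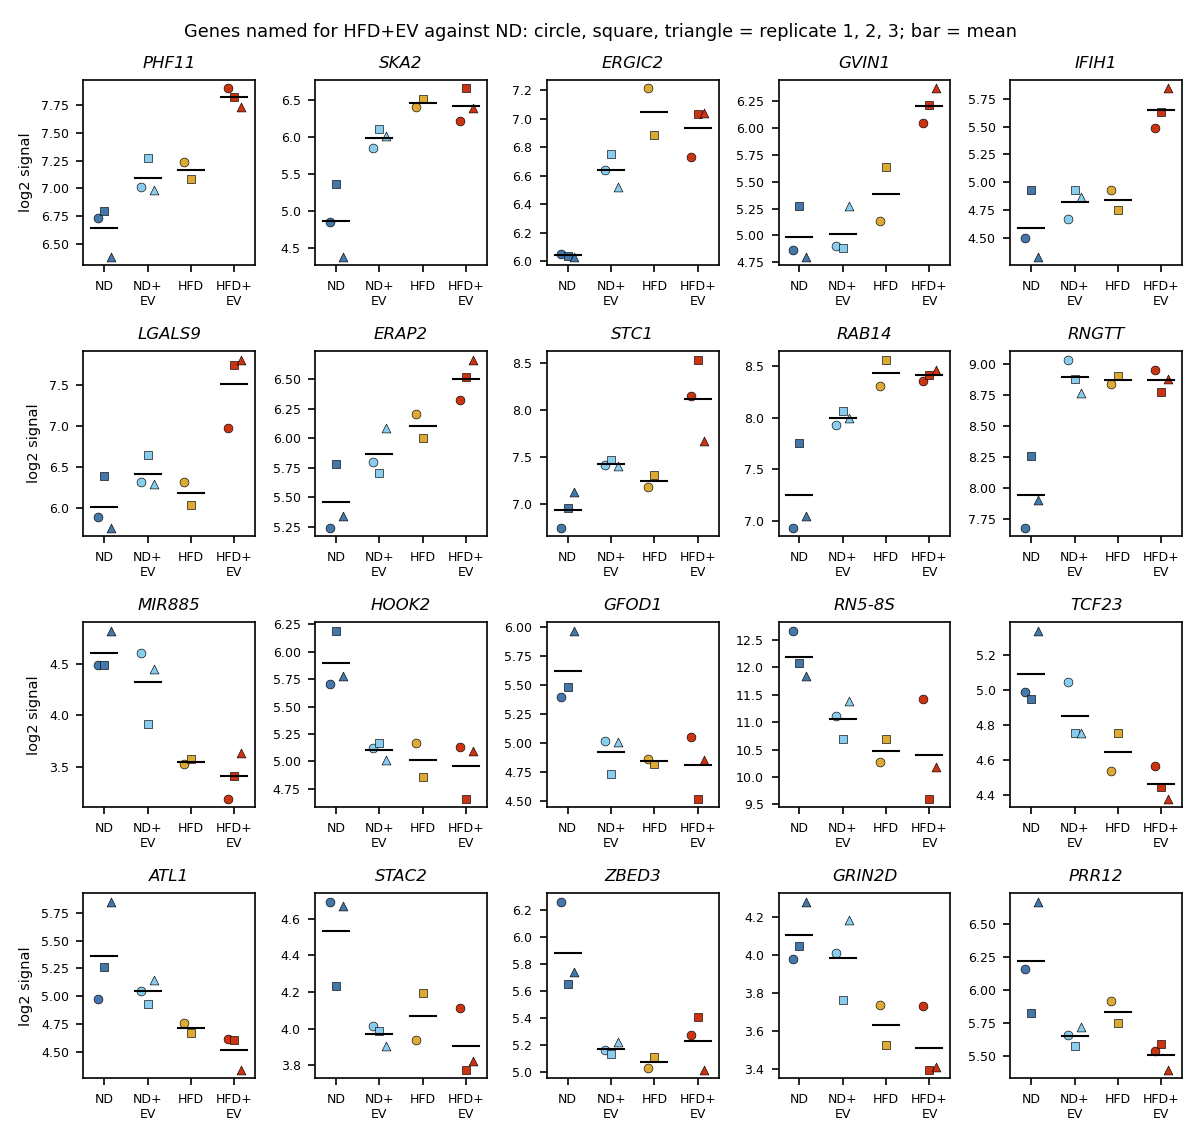
Log2 signal (vertical axes, each panel on its own scale) of the 20 named genes on each array, by group, with circle, square and triangle for replicates 1, 2 and 3 and a bar for the group mean. The upper 10 genes are higher in HFD+EV than in ND and the lower 10 are lower, without overlap between the groups, and PHF11 alone passed the threshold. Lack of overlap was a condition for naming the genes that did not pass.

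Interferon-stimulated genes and the respiratory chain had the largest median differences of the lists. Of 52 interferon-stimulated listed genes 32 were on the array and 31 were measured. All 31 had a mean above ND in HFD+EV, 22 of them without overlap between the arrays, where 10.7% of all 9738 genes were higher without overlap. None passed the threshold and 9 had an adjusted p under 0.10, against 0.647% of all genes in that direction. The median log2 fold change was 0.72, against 0.02 over all genes, and 8 genes had a fold of at least 2, as had 1.13% of all genes. Without HFD+EV replicate 1 and ND replicate 1 together 29 of 31 were higher with a median of 0.65. Without ND replicates 1 and 3, 30 were higher with a median of 0.72, and after cyclic loess 31 with 0.66. The list was chosen with earlier results of these arrays known, and its count is no independent evidence.

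Members of this list differed widely in size. OAS2, an enzyme that makes the activator of RNase L, had the largest difference. It read 5.14, 6.34 and 6.90 in ND and 9.32, 8.29 and 7.85 in HFD+EV (2.36 ± 0.47 SE, a fold of 5.14, limma adjusted p = 0.0848). The groups did not overlap, but HFD hearts also read 8.12 and 7.81. USP18, which restrains interferon signalling, read 3.78, 4.11 and 4.07 in ND and 5.74, 5.01 and 5.37 in HFD+EV (1.39 ± 0.24, adjusted p = 0.0779). IFIH1, a sensor of double-stranded RNA, read 4.495, 4.93 and 4.33 in ND and 5.49, 5.63 and 5.84 in HFD+EV (1.07 ± 0.17, adjusted p = 0.0713). In USP18 and IFIH1 the HFD hearts were nearer to ND, at 4.42 and 4.39 and at 4.93 and 4.75. EIF2AK2, the kinase that halts translation on double-stranded RNA, read 5.63, 5.59 and 5.36 in ND and 6.72, 6.36 and 6.69 in HFD+EV (1.06 ± 0.20, adjusted p = 0.0779). At the other end, the transcription factor IRF1 read 5.44, 5.43 and 5.39 in ND and 5.72, 5.27 and 5.34 in HFD+EV, a difference of 0.02 ± 0.15 with overlapping arrays. The OAS, IFIT and GBP families hold related genes, and signal shared between their probe sets was not tested.

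**Figure D3:**
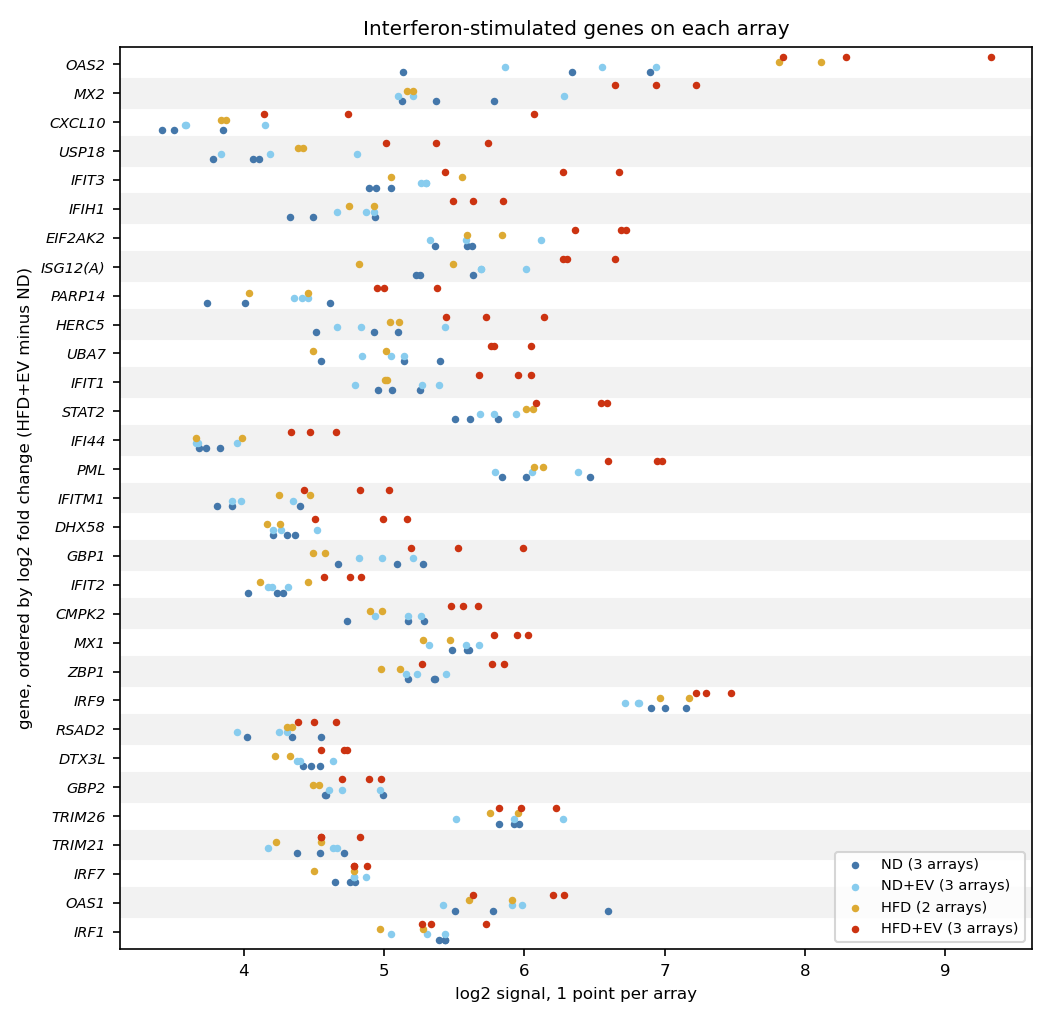
Log2 signal (horizontal axis) of the 31 interferon-stimulated genes on each of the 11 arrays, 1 point per array, coloured by group and ordered by the difference between HFD+EV and ND. The red HFD+EV points lie to the right of the blue ND points in the upper rows, and in OAS2 the HFD arrays lie among them, while at the foot, as in IRF1, the groups overlap.

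Each heart was given 1 score per list: every gene was centred on its 11-array mean, and the centred values of the list were averaged. For interferon-stimulated genes it was 0.56, 0.49 and 0.39 in HFD+EV and -0.23, -0.19 and -0.23 in ND. HFD scored -0.19 and -0.15 and ND+EV -0.25, -0.07 and -0.13. All 3 HFD+EV hearts were thus above the 8 other hearts. Median differences of the list were -0.05 for HFD and 0.04 for ND+EV from ND, and 0.63 and 0.60 for HFD+EV from HFD and from ND+EV, comparisons that share arrays. Markers of lymphocytes and phagocytes had smaller medians. Of 14 T and NK cell markers 7 were higher (median -0.00), with scores of -0.075 to 0.12 in HFD+EV and -0.05 to 0.09 in ND. Of 10 macrophage and monocyte markers 5 were higher (median 0.18), with scores of -0.06 to 0.23 in HFD+EV and -0.37 to -0.01 in ND, and 4 of 5 B cell and plasma cell markers were lower (median -0.24). None of these markers passed the threshold, array signals have no true zero, and their part in the interferon difference was not tested.

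Genes of antigen presentation, which cut proteins to peptides and show them on class I and class II molecules, were higher in 24 of 24. The median was 0.47, 9 genes did not overlap (37.5%, against 10.7% of all genes) and none passed. TAP1, the peptide transporter, read 6.32, 6.47 and 6.12 in ND and 7.29, 6.74 and 6.81 in HFD+EV (0.64 ± 0.17, limma adjusted p = 0.145), with HFD at 6.05 and 6.32. PDIA3, a chaperone of class I assembly and of protein folding at large, differed by 1.05 ± 0.24 (adjusted p = 0.118), and HFD differed from ND by 1.03. The class II gene SLA-DQA1 gave the largest difference (1.06 ± 0.34, overlapping) and the class I gene SLA-7 the smallest (0.08 ± 0.18). SLA genes are alike in sequence and their values are uncertain. Scores were 0.09, 0.22 and 0.36 in HFD+EV and -0.59, -0.03 and -0.17 in ND, without overlap. Without ND replicates 1 and 3 the median was 0.23 and 21 of 24 were higher, and without ND replicate 1 alone it was 0.21. After cyclic loess it was 0.28 with 24 higher. Median differences of this list from ND were 0.40 in HFD and 0.20 in ND+EV. Of 18 complement genes 14 were higher (median 0.30, 0.21 after cyclic loess, 0.16 without ND replicate 1 and 0.45 without HFD+EV replicate 1). Among them was C1QB at 1.44 ± 0.49 with overlapping arrays, and its second probe set gave 0.79. Of 26 cytokines and chemokines 15 were higher (median 0.06, between -0.0125 and 0.11 over 13 alternatives), and CXCL10, a chemokine also on the interferon list, read 1.40 above an ND mean of 3.59 that lies below the low-signal limit (limma adjusted p = 0.149).

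**Figure D4:**
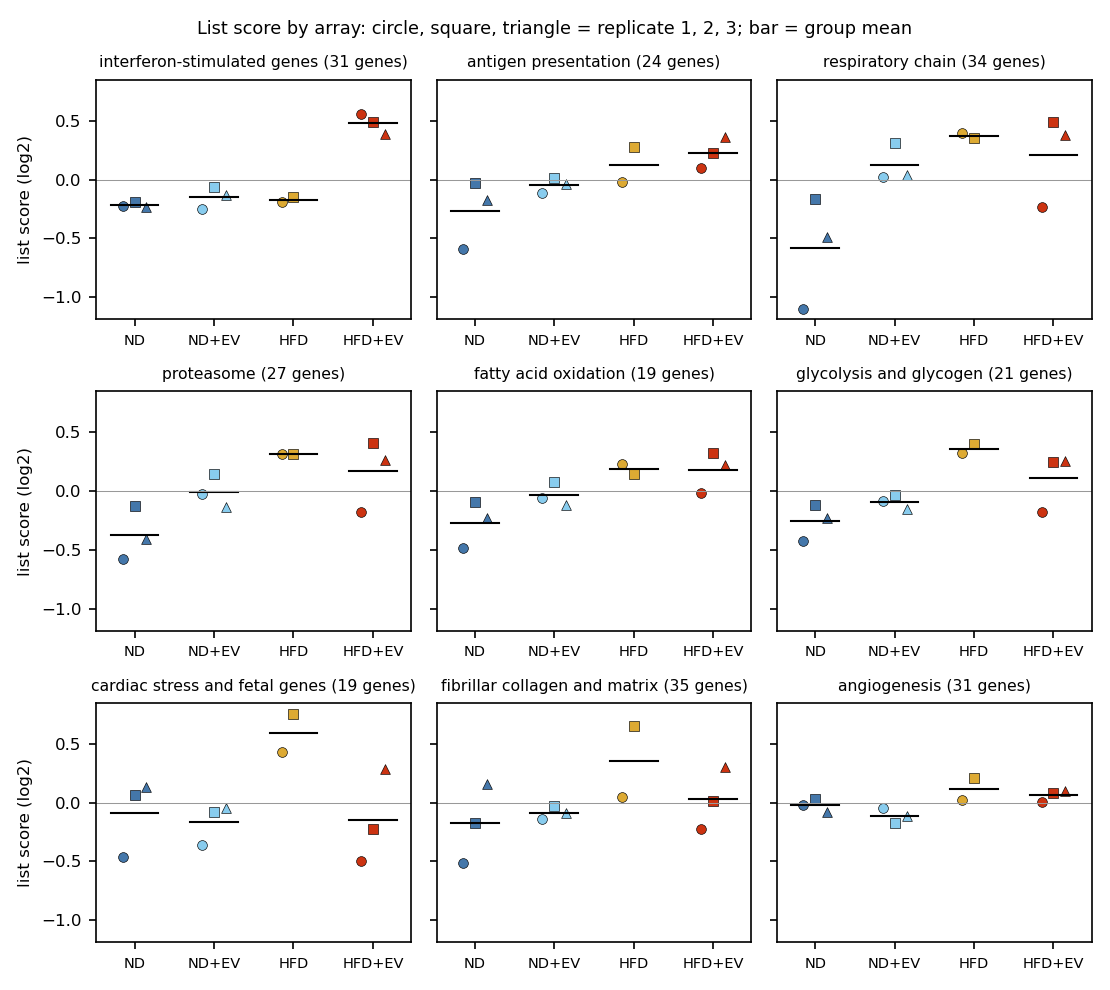
List score in log2 units (vertical axis) on each array for 9 gene lists, by group, with circle, square and triangle for replicates 1, 2 and 3 and a bar for the group mean. Interferon scores of the 3 HFD+EV hearts (0.39 to 0.56) stand above all other hearts, while in the respiratory chain HFD+EV replicate 1 (-0.23) lies below ND replicate 2 (-0.16).

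Genes of mitochondrial energy supply had positive medians whose size depended on the arrays used. Of 34 nuclear genes of the respiratory chain, which moves electrons and makes ATP, 32 were higher (median 0.72), 8 without overlap (23.5%, against 10.7% of all genes) and none past the threshold. ATP5A1, a subunit of ATP synthase, read 9.95, 10.17 and 9.93 in ND and 10.57, 11.15 and 11.53 in HFD+EV (1.07 ± 0.21, limma adjusted p = 0.0814). NDUFS3, a subunit of complex I, read 7.15, 7.88 and 7.63 in ND and 8.25, 8.598 and 8.93 in HFD+EV (1.04 ± 0.20, adjusted p = 0.0822). Neither gene overlapped, and both stood farther above ND in HFD (1.32 and 1.24). ATP5O gave the largest difference (1.98 ± 0.58, adjusted p = 0.158), but its ND arrays spread from 4.14 to 6.54 and overlapped with HFD+EV. List scores of the chain were -1.10, -0.16 and -0.49 in ND and -0.23, 0.49 and 0.38 in HFD+EV, so the groups overlapped. Without ND replicates 1 and 3 the median was 0.39 and 29 of 34 were higher, and after cyclic loess it was 0.54. It was 0.95 without ND replicate 2 and 0.97 without HFD+EV replicate 1, and it was above 0 in all 13 alternatives. The genes had high signal (median 7.55 in ND), where most probe sets were higher. Median differences of the list from ND were also 0.91 in HFD and 0.66 in ND+EV. HFD+EV differed from HFD by a median of -0.18 and from ND+EV by 0.06, in comparisons that share arrays.

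Fuel breakdown gave smaller differences of the same sign. All 13 TCA cycle genes (median 0.44), all 16 genes that break down ketones and branched-chain amino acids (0.44) and 17 of 19 genes of fatty acid oxidation (0.42) were higher, and none passed. After cyclic loess these medians were 0.34 with 12 higher, 0.33 with 16 and 0.27 with 14. Against ND the same lists had medians of 0.61, 0.68 and 0.48 in HFD and 0.30, 0.31 and 0.24 in ND+EV. ACADL, a dehydrogenase of long-chain fatty acids, read 6.31, 6.84 and 6.33 in ND and 7.07, 7.30 and 7.19 in HFD+EV (0.70 ± 0.17, limma adjusted p = 0.13). ACSL1, which activates fatty acids, read 8.56, 8.43 and 8.11 in ND and 8.84, 9.20 and 8.80 in HFD+EV (0.58 ± 0.16, adjusted p = 0.149). The groups did not overlap in these genes. HFD hearts were at 0.699 from ND for ACADL and at 0.18 for ACSL1. UCP3, an uncoupling protein, differed by -0.12 ± 0.17. DLD, the shared dihydrolipoyl dehydrogenase of the pyruvate and ketoglutarate complexes, differed by 0.98 ± 0.23 (adjusted p = 0.118), and probe sets of DLAT from the same pyruvate complex pointed in opposite directions (0.73 and -0.46). Without ND replicates 1 and 3 the median of fatty acid oxidation was 0.18 with 15 of 19 higher. In that setting the ketone and branched-chain list had a median of 0.28 with 12 of 16 higher, and the TCA cycle 0.32 with 13 of 13. Without HFD+EV replicate 1 the median of the TCA cycle was 0.66. Of 21 genes of glycolysis and glycogen 18 were higher (median 0.37, and 0.10 after cyclic loess), including glycogen phosphorylase PYGM (0.88 ± 0.19, adjusted p = 0.101) and lactate dehydrogenase LDHA (1.09 ± 0.27, adjusted p = 0.139). ENO1 was at -0.38 ± 0.28. Regulators of this metabolism, the 13 PPAR and PGC-1 genes, had a median of -0.05 that turned to 0.03 under quantile or cyclic loess normalization.

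The machinery of protein turnover was higher without passing. All 27 proteasome genes had a mean above ND (median 0.38), 10 without overlap (37%, against 10.7% of all genes). PSMD8, a subunit of the regulatory cap, read 6.13, 6.69 and 6.45 in ND and 7.10, 8.24 and 7.86 in HFD+EV (1.31 ± 0.25, limma adjusted p = 0.0814). The cap subunit PSMD12 read 4.999, 5.39 and 4.73 in ND and 5.76, 6.23 and 6.22 in HFD+EV (1.03 ± 0.20, adjusted p = 0.0814). Neither overlapped between HFD+EV and ND. HFD hearts read 8.17 and 8.38 for PSMD8 and 6.04 and 6.48 for PSMD12, among or above the HFD+EV hearts. PSMD3 differed by 0.01 ± 0.17. Median differences of the proteasome list from ND were 0.60 in HFD and 0.31 in ND+EV. The proteasome scores of the groups overlapped (-0.57 to -0.13 in ND and -0.18 to 0.41 in HFD+EV). The proteasome median was 0.34 with 24 higher after cyclic loess, 0.6953 without HFD+EV replicate 1, 0.61 without ND replicate 2, and 0.32 with 22 of 27 higher without ND replicates 1 and 3. Of 24 genes of ubiquitin conjugation 22 were higher (median 0.39, 0.19 after cyclic loess and 0.24 without HFD+EV replicate 3). Of 32 cytosolic ribosomal protein genes 28 were higher (median 0.27), but without ND replicates 1 and 3 there were 6 and the median was -0.12, and without ND replicate 1 alone it was -0.07. After cyclic loess it was 0.05.

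No gene of vessel growth passed, and the list held both directions. Of 31 measured angiogenesis genes 20 were higher and 11 lower, with a median of 0.05 (0.035 with 18 higher after cyclic loess, 0.12 without HFD+EV replicate 1 and 0.031 without ND replicate 2), and the list scores overlapped (-0.08 to 0.03 in ND and 0.00 to 0.10 in HFD+EV). Arrays did not overlap in 4 of the higher and 2 of the lower genes, where 10.7% and 7.4% of all genes were higher and lower without overlap. VEGFA, the main ligand that drives endothelial sprouting, read 10.52, 9.87 and 9.86 in ND and 9.51, 9.33 and 9.41 in HFD+EV. Every HFD+EV heart was below every ND heart, but the difference of -0.67 ± 0.19 (95% interval -1.09 to -0.25) did not pass (limma adjusted p = 0.151). HFD and ND+EV were below ND as well, by -0.48 and -0.65, and HFD+EV differed from ND+EV by -0.02. A second VEGFA probe set gave -0.37. VEGFD, a ligand of the lymphatic and endothelial receptors, read 6.12, 6.06 and 5.48 in ND and 6.42, 6.90 and 6.34 in HFD+EV (0.67 ± 0.25, adjusted p = 0.232). VEGFC (0.25) and PGF (-0.12), the other ligands measured, overlapped.

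Receptors of these ligands overlapped between the groups. KDR, the main signalling receptor of VEGFA, differed by 0.47 ± 0.34 (limma adjusted p = 0.488) with ND replicate 2 at 7.43 above 2 HFD+EV hearts, and its second probe set gave -0.11. FLT1 differed by 0.16 ± 0.18 and the lymphatic receptor FLT4 by -0.08 ± 0.18. In the angiopoietin axis, ANGPT1 differed by 0.05 ± 0.12, ANGPT2 by 0.31 ± 0.17 and their receptor TEK by 0.16 ± 0.12. The intervals of these differences include 0, which does not show that the levels were equal. JAG1, a Notch ligand, read 6.33, 6.78 and 6.10 in ND and 6.99, 6.798 and 6.92 in HFD+EV (0.50 ± 0.17, adjusted p = 0.189), without overlap, and FGFR1, a receptor of fibroblast growth factors, was at -0.44 ± 0.16. NOS3, the endothelial nitric oxide synthase, read 5.46, 5.63 and 5.35 in ND and 5.11, 5.19 and 4.75 in HFD+EV (-0.46 ± 0.19, adjusted p = 0.253). NOS3 did not overlap between the groups, and HFD hearts were as low (4.72 and 5.10). Of 11 endothelial markers 9 were higher and 2 lower, with a median of 0.16. The median was 0.04 after cyclic loess, between 0.077 and 0.30 with 1 array left out and -0.02 without ND replicates 1 and 3. Arrays did not overlap in 0 of the higher and 2 of the lower markers, where 10.7% and 7.4% of all genes were higher and lower without overlap. EGFL7, a protein secreted by endothelium, was at -0.51 ± 0.18.

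Vascular tone and hypoxia held single genes nearer to the threshold. AGTR1, the angiotensin II receptor, read 3.0, 3.48 and 3.17 in ND and 3.90, 4.23 and 4.07 in HFD+EV (0.85 ± 0.17, limma adjusted p = 0.0822), with all ND arrays below the low-signal limit of 3.63, so the size of its difference is uncertain. EDNRA, an endothelin receptor, differed by 0.88 ± 0.24 and PDE3A, a phosphodiesterase of cyclic nucleotides, by 0.68 ± 0.19 (adjusted p = 0.149 each). No arrays overlapped for these 3 genes. Of the 25 genes of endothelial nitric oxide and vascular tone 15 were higher and 10 lower (median 0.096, and 0.059 after cyclic loess). Of this list 4 higher genes and 1 lower gene had no overlap, where 10.7% and 7.4% of all genes were higher and lower without overlap. Of 27 hypoxia response genes 21 were higher (median 0.22, 0.076 after cyclic loess and 0.15 without HFD+EV replicate 3). Without ND replicates 1 and 3 the median was 0.068 with 16 of 27 higher. VEGFA was the lowest member of this list in the main fit (-0.67). Arrays did not overlap in 8 of the higher and 2 of the lower genes (37% together, against 18.1% of all genes in either direction). HIF1A, the oxygen-regulated transcription factor, read 5.33, 6.08 and 5.88 in ND and 6.38, 7.13 and 6.62 in HFD+EV (0.94 ± 0.23, adjusted p = 0.136). EGLN1, the hydroxylase that marks it for destruction, differed by 0.61 ± 0.13 (adjusted p = 0.103). Both were higher in HFD by like amounts (0.93 and 0.59).

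Stress and matrix lists had smaller median differences from ND in HFD+EV than in HFD. Their HFD+EV medians ran from -0.05 to 0.19, against 0.02 over all genes, so not all of them lay at the level of ND. Of 19 cardiac stress and fetal genes 9 were higher and 10 lower, with a median of -0.05 in HFD+EV and of 0.78 in HFD, both against ND. The HFD+EV median ran from -0.25 after cyclic loess to 0.12 without HFD+EV replicate 1 and ND replicate 1, so it has no settled sign. NPPB, the natriuretic peptide raised in strained muscle, read 5.78, 7.78 and 9.25 in ND and 5.92, 5.40 and 8.53 in HFD+EV (-0.98 ± 1.14), with 7.69 and 9.68 in HFD. Hearts of a group differed more in NPPB than the groups did. FHL2, a scaffold of the sarcomere, differed by 0.74 ± 0.25 (limma adjusted p = 0.187), with overlap. Collagen and matrix genes had medians of 0.12 in HFD+EV (25 of 35 higher) and 0.59 in HFD, heat shock and chaperone genes 0.15 (18 of 27) and 0.59, unfolded protein response genes 0.19 (19 of 23) and 0.51, and atrial muscle markers 0.03 (6 of 12) and 0.44. Over the 13 alternatives the HFD+EV medians ran from 0.043 (without HFD+EV replicate 3) to 0.27 (without HFD+EV replicate 1) for collagen and matrix. They ran from 0.065 (quantile) to 0.32 (without HFD+EV replicate 1) for heat shock and from 0.10 (without HFD+EV replicate 3) to 0.27 (without HFD+EV replicate 1 and ND replicate 1) for the unfolded protein response. Atrial markers ran from -0.10 (cyclic loess) to 0.16 (without ND replicate 3), with no settled sign. In all of these lists the scores of HFD+EV and ND overlapped and no gene passed for HFD+EV against ND. Both sets of medians use the same ND arrays, and the HFD values rest on 2 hearts. The difference between HFD+EV and HFD was below 0 in each list (medians -0.67, -0.21, -0.28, -0.23 and -0.42), and 0 probe sets passed in that comparison. Most other lists had a median below HFD too, among them the respiratory chain (-0.18), the proteasome (-0.17) and glycolysis (-0.18). Interferon-stimulated genes (0.63) and antigen presentation (0.14) were among those above it. The sign is therefore not particular to stress and matrix genes.

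Cell type markers gave one list with all genes on one side. Of 11 fibroblast markers 11 were higher (median 0.45, 0.18 with 9 higher after cyclic loess, 0.17 without ND replicate 1 and 0.68 without HFD+EV replicate 1). Arrays did not overlap for 1 of them (9.09%), which is no more than the 10.7% of all genes. A second probe set of the collagen gene COL1A1 gave -0.17, beside 0.61 for the probe set used. DDR2, a collagen receptor, read 6.65, 7.06 and 6.35 in ND and 7.17, 7.25 and 7.49 in HFD+EV (0.62 ± 0.17, limma adjusted p = 0.149). DCN, a small matrix proteoglycan, read 10.69, 11.80 and 11.91 in ND and 11.80, 12.27 and 12.29 in HFD+EV (0.65 ± 0.28), with ND replicate 1 far below the rest. Fibroblast scores were -0.75 to 0.04 in ND and -0.20 to 0.47 in HFD+EV. Of 9 cardiomyocyte markers 6 were higher (median 0.23, and -0.20 after cyclic loess), and of 17 sarcomere genes 14 were higher (0.23, and -0.13 after cyclic loess), so neither direction was kept. How far the share of cell types moved with any result was not tested.

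Genes with the largest differences between HFD and ND, picked after their values were seen, showed how far HFD+EV stood from ND on the same scale. TOMM22, a receptor for protein import into mitochondria, read 4.98, 5.56 and 5.47 in ND, 7.51 and 7.52 in HFD and 6.02, 7.18 and 7.34 in HFD+EV. Its differences from ND were 2.18 in HFD (limma adjusted p = 0.0471) and 1.51 ± 0.36 in HFD+EV (adjusted p = 0.13). PCP4L1, a small protein related to a calmodulin regulator, read 5.80 and 6.70 in HFD but 4.65, 4.56 and 4.57 in HFD+EV and 4.52, 4.51 and 3.88 in ND. PCP4L1 was thus at 1.94 from ND in HFD and at 0.29 ± 0.23 in HFD+EV. UBE2B stood at 1.78 and 0.98, FAM129A at 1.77 and 0.74, and SPON1, a secreted matrix protein, at 1.65 and 0.77. These genes were chosen for a high HFD value, and the same ND arrays enter both differences, so a smaller HFD+EV value is no finding.

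**Figure D5:**
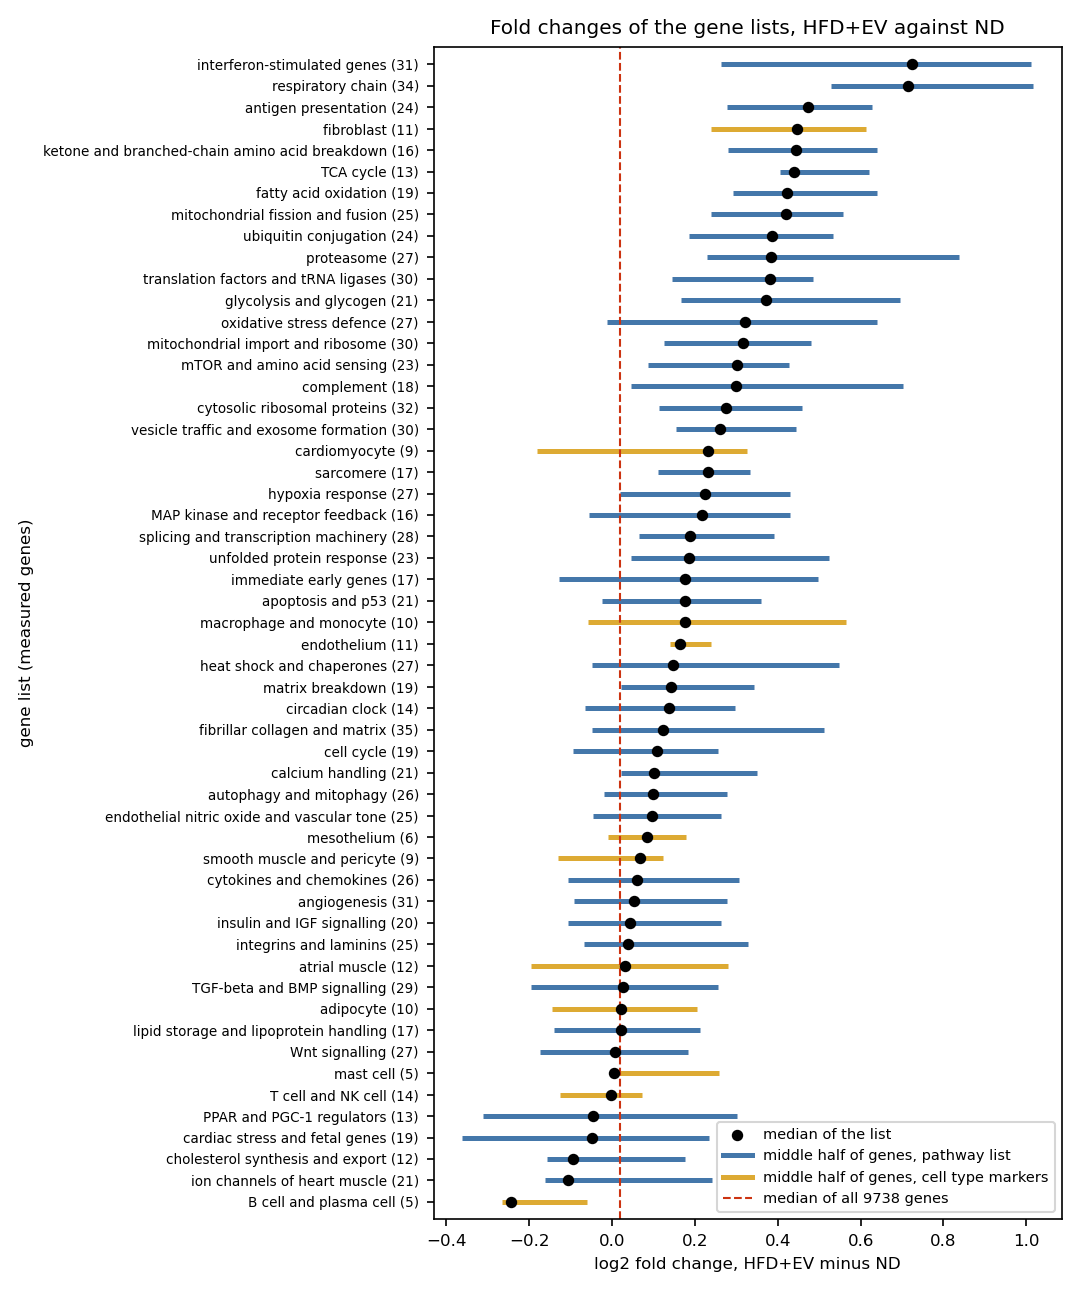
Median log2 fold change of HFD+EV over ND (black points, horizontal axis) and the middle 50% of genes (bars; blue for pathways and complexes, yellow for cell type markers) for 54 gene lists, with the number of measured genes in brackets and the median of all 9738 genes as a dashed line. Interferon-stimulated genes (0.72) and the respiratory chain (0.72) lead, and angiogenesis (0.05) and cardiac stress genes (-0.05) lie near the line.

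Over the 54 lists with at least 5 measured genes, 48 medians were above 0 and no list held a gene that passed. Scores of the HFD+EV hearts lay above those of ND without overlap in 13 lists and below in 0. Many lists hold genes of high signal, and 69.5% of the probe sets with the highest signal were higher, against 30.4% of those with the lowest. Some lists share genes and all use the same arrays, so these counts are not independent evidence. The part of signal in them was not tested. In 31 of the 54 lists the median was above 0 in each of the 13 alternatives run for lists, and interferon-stimulated genes, the respiratory chain, antigen presentation, the TCA cycle and fatty acid oxidation were among them.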

How the data were processed

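An Affymetrix whole-transcript array was hybridised with 50 ng of total RNA per the labels' protocols. Transcriptome Analysis Console is named in the submitters' processing notes. The values the authors deposited are normalized log2 signals of 27558 probe sets on 11 arrays. How they were summarised and normalized, and the build, were not given in the sources used here. Of the probe sets, 13157 carried 1 symbol, 523 several and 13878 none in the platform annotation, and 12841 matched a current gene table, which updated 7 symbols.

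Probe sets averaging under 3.63 over the arrays, the dimmest 25%, were dropped, leaving 20668. In R 4.3.3, limma 3.58.1 (lmFit, then eBayes) fitted a mean for each of the 4 groups on the 11 arrays, with 7 residual degrees of freedom. Tests were two-sided, p-values were Benjamini-Hochberg adjusted over the 20668 probe sets, and the threshold was 0.05. The functions were tested on simulated data. Each of 9738 genes was represented by the probe set of highest mean signal. Named genes were those passing at 1.5-fold or more, then up to 10 in each direction by smallest p among genes at that fold without overlap, and for each list the 3 members with the smallest p and those with the highest and lowest fold change. All VEGF and angiopoietin genes and NOS3 were added, uncharacterised loci were not named, and genes named for HFD against ND were added after seeing the data. Of 61 lists, 54 had at least 5 measured genes. Markers of neutrophils, red cells, skeletal muscle, nerve, dendritic cells, lymphatic endothelium and platelets were too few. The members and lists were chosen with earlier results of these data known, and lists were described by counts and medians with no test. The number of arrays limits the precision. Filters, normalization, variance prior, array weights, a replicate block and left-out arrays were tried as alternatives.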

Additional observations from a re-analysis of the deposited data

How the results depend on the processing

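The count of 5 probe sets for HFD+EV against ND depended on most choices. It was 140 at an adjusted p of 0.10, 43 without both HFD+EV replicate 1 and ND replicate 1, 3 with no filter on low signal, 2 with each array centred on its own median, and 1 each with cyclic loess, quantile normalization, eBayes with trend and eBayes with trend and robust. It was 0 with only the 6 arrays of HFD+EV and ND (2504 at an unadjusted p under 0.05 by limma), 0 without both ND replicates 1 and 3 (1544) and 0 without these and HFD+EV replicate 1 (2532), an alternative chosen after seeing the data. Leaving out 1 replicate at a time gave 0 to 403. Where arrays were left out, fewer samples entered the fit. The cause of the other changes was not tested. Array weights, a 50% filter and counting identical probe sets once gave 4, 7 and 5.

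With the replicate number as a block 132 probe sets passed, 118 higher and 14 lower. Deviations of same-numbered HFD+EV and ND arrays correlated at 0.33, 0.25 and 0.06, and each HFD+EV array other than replicate 3 correlated best with its own number. No label says that a number pairs samples, so the numbers were not used.

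The interferon-stimulated median of 0.72 was 0.66 after cyclic loess, 0.66 with no filter, 0.65 after quantile normalization and 0.65 without both HFD+EV replicate 1 and ND replicate 1, and 0.59 to 0.69 with 1 replicate left out. The angiogenesis median of 0.05 was 0.15 without both HFD+EV replicate 1 and ND replicate 1, and 0.031 to 0.12 with 1 replicate left out. Of the 54 lists, 32 kept the sign of their median in all 13 alternatives. Medians larger than the spread between replicates changed sign for autophagy under quantile normalization (-0.0034), B cell and plasma cell markers without ND replicates 1 and 3 (0.22, against -0.27 to -0.060 with 1 replicate left out), cholesterol synthesis and export without those (0.033, against -0.080 to 5e-04 with 1 replicate left out), and, after cyclic loess, cardiomyocyte markers (-0.20) and sarcomere genes (-0.13). Medians within that spread changed sign in at least 1 alternative for adipocyte, atrial muscle, endothelium, mast cell, mesothelium, smooth muscle, and T and NK cell markers, and for calcium handling, cardiac stress, cytokines, ribosomal proteins, insulin signalling, integrins, lipid storage, PPAR regulators, TGF-beta and Wnt genes. The excess of the array distance between groups over that within them was above 0 in all 10 alternatives. It was only 2e-04 without HFD+EV replicate 3 and 0.0057 without HFD+EV replicate 2, so its size was not kept.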
